A study of Homo sapiens with 3 samples.

Results

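The replication-dependent histone genes of a pancreatic carcinoma line were described in 3 single-cell libraries. Members were all genes whose symbol in the deposited feature lists begins with HIST1H, HIST2H, HIST3H or HIST4H, after the gene clusters they lie in. This gave 71 of 33694 features, of which 6 encode linker histone H1, 17 H2A, 18 H2B, 15 H3 and 15 H4. Every library came from BxPC-3, a human cell line derived from a pancreatic ductal adenocarcinoma. The parental library held cells that the labels call parental or NC. For the other libraries, cells stably expressing EGFP or mCherry were mixed in equal numbers and held in suspension, which induces cells to enter other cells (entosis), and were then sorted by flow cytometry. Single-positive cells showed EGFP or mCherry alone and double-positive cells showed both signals. Whether EGFP and mCherry cells were pooled for the single-positive library is not stated in the labels. They describe the cells as expanded, without saying when relative to the sort, and do not say whether parental cells carried a reporter or were held in suspension. Reporter, mixing, suspension and sorting can thus not be told apart in a comparison with parental cells. Each population was 1 library made with a 10x Chromium 5' kit of version 2. No difference between libraries therefore has a replicate check, and no p-value was computed.

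Histone proteins wrap DNA into nucleosomes, and a dividing cell must double its supply while it copies its genome. H2A, H2B, H3 and H4 form the nucleosome core, and H1 binds the linker DNA between cores. The replication-dependent genes are transcribed mainly in S phase. Their mRNAs classically end in a conserved stem-loop in place of a poly(A) tail. The stem-loop binding protein SLBP and the U7 snRNP direct the cut behind the stem-loop, and the mRNAs are degraded when replication stops. Several of these genes can also give polyadenylated mRNAs, by use of a poly(A) signal further downstream. The 5' kit primes reverse transcription with oligo(dT). Its libraries thus sample histone mRNAs that lack a tail poorly, and which 3' end gave each counted molecule was not recorded in the files.

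The stem-loops are shown first because they mark the 3' end of the tailless form. In the GENCODE 29 transcripts of build GRCh38, all 71 members were matched by gene identifier. A stem-loop pattern with 6 stem bases on each side of a 4-base loop, 16 bases in all, was found in annotated transcripts of 31 members. The search did not require every stem base to pair, and the HIST1H2AG form sets a T opposite a G. Over all 206694 annotated transcripts, those of the members included, 63 (0.0305%) held such a sequence. A missing match says that the annotated transcript does not reach or hold these letters, since many histone models stop at the coding sequence. The forms found are given 5' to 3' as DNA, with the stem in capitals and the loop in lower case.
Form of 17 members, among them HIST1H2AC, HIST3H2A, HIST1H2AI, HIST1H3H and HIST2H2BE: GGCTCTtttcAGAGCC
Form of 5 members, all H4, among them HIST1H4H and HIST4H4: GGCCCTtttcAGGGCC
Form of 5 members, among them HIST1H2BC and HIST1H2BD: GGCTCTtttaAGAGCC
Form of 3 H4 members, among them HIST2H4B: GGCCCTttttAGGGCC
Form of HIST1H2AG: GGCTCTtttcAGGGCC
The annotated transcript of HIST1H2AI stopped 39 bases after the stem-loop. Transcripts of HIST2H2BE ran 1729 bases beyond it, those of HIST1H2AG 1761 bases and those of HIST1H3H 769 bases. Each of these models, that of HIST1H2AI included, thus runs on beyond the stem-loop.

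Cells were barcodes with at least 6500 unique molecular identifiers (UMIs), which count captured mRNA molecules. The parental library gave 2409 cells with a median of 23290 UMIs, the single-positive library 1291 cells with 38137 and the double-positive library 1940 cells with 29963.5. Called cells held 97.7 to 98.0% of the UMIs of a matrix. The libraries shared 1 to 6 called barcodes in pairs. Summed over 9 epithelial markers, cells had 9782 to 10106 CPM (counts scaled to the same fixed total of UMIs in every library or set of cells), with no marker at 0. Markers of fibroblasts summed to 1.92 to 2.30 CPM and those of endothelial, immune and erythroid cells each to under 1 CPM. The median mitochondrial share of UMIs was 0.947%, 1.30% and 2.08% in the same order. All intervals below are at 95% and cover counting error alone. A UMI is counted once per molecule whatever its length, so levels of different genes are compared in CPM without a length scaling.

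Histone members took a small part of the transcriptome. They summed to 1146 CPM (1137.5 to 1154) in parental cells, 1520 CPM (1510 to 1531) in the single-positive library and 1245 CPM (1237 to 1254) in the double-positive one, or 0.115%, 0.152% and 0.125% of UMIs. The single-positive library was the high one, and the intervals did not overlap. For scale, H2AFZ, which encodes the replication-independent variant H2A.Z from a polyadenylated mRNA, alone reached 1155, 1061 and 1192 CPM in the same order. Of the 71 members, 26 had a mean of at least 5 CPM, 19 lay between 1 and 5 CPM and 26 under 1 CPM. The 45 members under 5 CPM together gave 39.5, 55.7 and 41.2 CPM. Of these, 8 had 0 UMIs in every library (HIST1H2AD, HIST1H2BA, HIST1H3D, HIST1H3F, HIST1H4E, HIST1H4F, HIST1H4G and HIST3H3). HIST1H2BA is the testis H2B, and HIST1H3D and HIST1H2AD share a strand with an overlapping gene model in GENCODE 29. The testis linker histone HIST1H1T had 7, 5 and 8 UMIs.

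A few members supplied most of the signal. HIST1H4C and HIST1H1E together gave 27.3%, 36.7% and 31.6% of histone UMIs in parental, single-positive and double-positive cells, and the 5 members of highest mean CPM gave 58.1%, 59.8% and 61.0%. By position, the large cluster on chromosome 6 (55 members, GRCh38 25726132 to 27893843) summed to 1006, 1386 and 1115 CPM. The 12 HIST2 members on chromosome 1 gave 43.6, 54.3 and 45.0 CPM, and the 3 HIST3 members, also on chromosome 1, gave 87.5, 71.7 and 77.5 CPM.

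**Figure D1:**
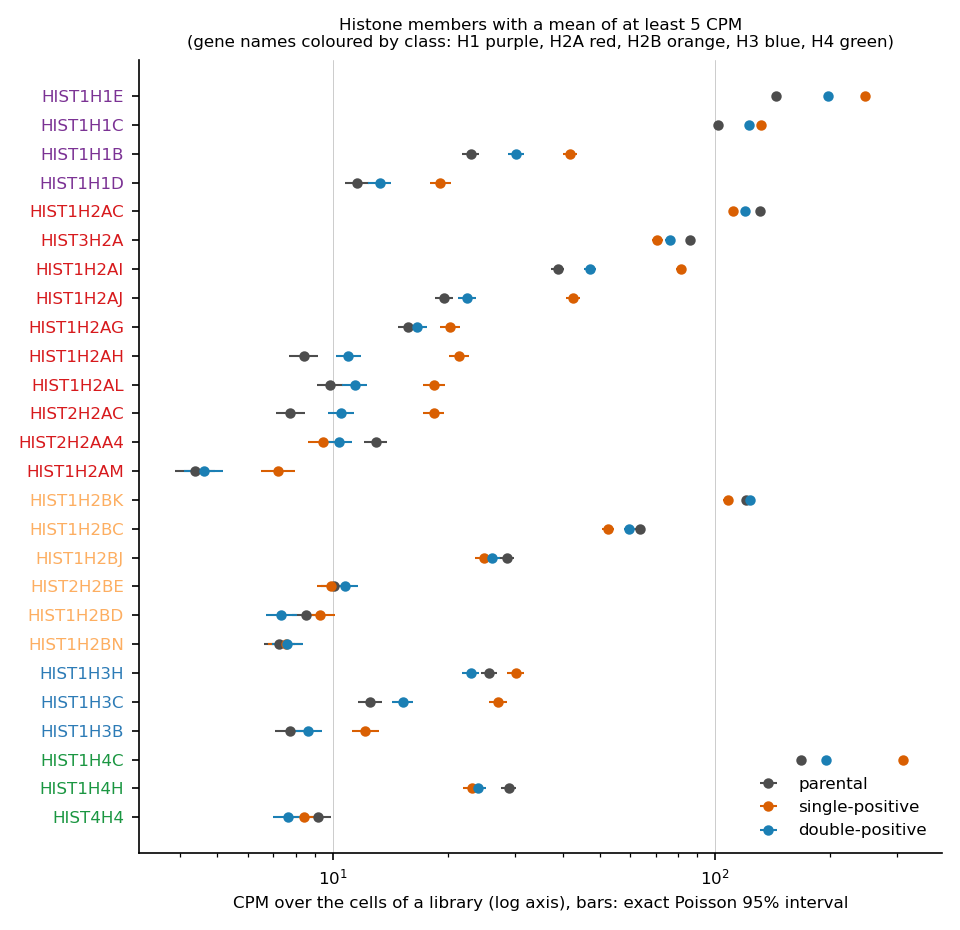
CPM of the 26 members whose mean reached 5 CPM (log x axis), by library, with exact Poisson intervals as bars and names coloured by histone class. Single-positive points lie to the right for HIST1H4C (310 CPM) and HIST1H2AI (81.5 CPM) and to the left for HIST1H2AC (112 CPM) and HIST3H2A (70.7 CPM).

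Among linker histones, which summed to 283, 443 and 367 CPM in parental, single-positive and double-positive cells, HIST1H1E (chromosome 6, 26156354 to 26157107) stood at 144, 247 and 198 CPM. HIST1H1C (chromosome 6, 26055787 to 26056428) stood at 102, 132 and 123 CPM, and HIST1H1B at 23.0, 41.7 and 30.2 CPM. HIST1H1D was at 11.6, 19.1 and 13.3 CPM. In all of these the parental library was the low one and the single-positive library the high one. HIST1H1A stayed near the limit of use, at 2.16, 3.07 and 2.31 CPM.

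H2A members summed to 344, 415 and 339 CPM, but the genes within the class did not move as a block. HIST1H2AC (chromosome 6, 26124145 to 26139116) was at 131, 112 and 120 CPM, and HIST3H2A (chromosome 1, 228456979 to 228457873) at 86.3, 70.7 and 76.4 CPM, so that the single-positive library was the low one. HIST1H2AI was at 38.9, 81.5 and 47.1 CPM and HIST1H2AJ at 19.6, 42.6 and 22.5 CPM, with the single-positive library high. Shared sequence may have affected the counts of the latter pair, since 58.7% and 81.5% of their 90-base stretches in GENCODE 29 occur in both. HIST1H2AG was at 15.8, 20.3 and 16.6 CPM. HIST2H2AA4 (13.0, 9.43 and 10.4 CPM) shares 96.8% of its stretches, mainly with HIST2H2AA3, and cannot be told apart from it.

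H2B was the class in which the single-positive library was lowest, with sums of 248, 226 and 246 CPM. HIST1H2BK (chromosome 6, 27146418 to 27146798) gave the largest part, 120, 108 and 124 CPM, and 34.6% of its stretches also occur in H2BFS or HIST1H2BO. HIST1H2BC was at 63.7, 52.6 and 59.7 CPM and HIST1H2BJ at 28.5, 24.9 and 26.1 CPM. HIST2H2BE stood at 10.1, 9.93 and 10.8 CPM, with overlapping intervals. HIST1H2BD was at 8.54, 9.26 and 7.34 CPM, and a gene model lies on its opposite strand.

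H3 had the lowest sum of the classes, 55.1, 83.7 and 57.1 CPM. HIST1H3H led it with 25.6, 30.2 and 23.0 CPM, followed by HIST1H3C with 12.5, 27.1 and 15.2 CPM and HIST1H3B with 7.73, 12.2 and 8.63 CPM. HIST1H3I and HIST1H3A had means under 5 CPM. H4 summed to 216, 352 and 236 CPM and was dominated by HIST1H4C (chromosome 6, 26103876 to 26104310), at 168, 310 and 195 CPM. HIST1H4H was at 28.9, 23.2 and 24.0 CPM and HIST4H4, the lone member on chromosome 12, at 9.14, 8.42 and 7.65 CPM. HIST2H4B and HIST1H4D had means under 5 CPM.

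The cell cycle divided the members. Cells thinned to 6500 UMIs were called G1, S or G2M from 43 S genes and 54 G2M genes that include 0 histone members. S cells were 22.5%, 26.4% and 24.7% of parental, single-positive and double-positive cells, and G2M cells 33.7%, 39.9% and 34.5%. Summed histone level was 901, 1000 and 932 CPM in G1 cells, 1130, 1584 and 1340 CPM in S cells and 1411, 1896 and 1491 CPM in G2M cells. Each library had the order G1, S, G2M, and the ratio of S to G1 cells was 0.33 (0.30 to 0.36), 0.66 (0.63 to 0.69) and 0.52 (0.50 to 0.55) on the log2 scale. Cells called G2M also had more UMIs, with medians of 28278, 41269 and 34704.5 against 20774, 36329 and 26271.5 in G1.

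H3 and H4 differed most between phases. S cells had 2.43, 2.70 and 2.63 times the H3 level of G1 cells in parental, single-positive and double-positive cells, 1.86, 2.53 and 2.57 times the H4 level and 1.72, 1.93 and 1.79 times the H1 level. For H2A the ratios were 1.09, 1.36 and 1.25. H2B went the other way in every library, at 0.735, 0.772 and 0.775 times the G1 level.

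At 2-fold between S and G1 cells, 11 of 25 members with at least 5 CPM in those cells were higher in the parental library, where 3.28% of all 9441 genes were. In single-positive cells 12 of 26 members were higher (3.33% of all genes) and in double-positive cells 13 of 25 (3.6% of all genes). Lower in S were 3 of 25 (1.13%), 3 of 26 (1.39%) and 2 of 25 members (0.675%). The median log2 ratio of the members was 0.77, 0.93 and 1.11, against 0.03, 0.01 and 0.01 over all genes.

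A group of 12 members was at least 2-fold higher in S than in G1 cells in every library. HIST1H1B had 4.90 CPM in parental G1 cells and 35.2 CPM in S cells, 9.44 and 57.9 CPM in single-positive cells and 6.55 and 45.8 CPM in double-positive cells, a mean log2 ratio of 2.76. HIST1H1D (2.70), HIST1H3C (2.60), HIST1H2AH (2.49) and HIST1H2AI (2.21) followed. HIST1H4C went from 75.6 to 204 CPM, 117 to 386 CPM and 74.9 to 271 CPM in the same order (mean 1.67). HIST1H1E went from 70.1 to 163, 118 to 268 and 92.7 to 218 CPM (1.21). The others included HIST1H2AJ (1.91), HIST1H3B (2.17) and HIST2H2AC (1.72). G1 and S values did not overlap across the libraries for HIST1H4C, whose highest G1 level was below its lowest S level.

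In 7 members S cells were below G1 cells, by any amount, in every library. The share of all genes below in every library was not computed. The all-gene median log2 ratio was 0.03, 0.01 and 0.01, so a decrease of any size is a loose criterion. HIST2H2BE had 16.8 CPM in parental G1 cells and 4.90 CPM in S cells, 18.2 and 6.08 CPM in single-positive cells and 19.6 and 5.86 CPM in double-positive cells, a mean log2 ratio of -1.70. HIST1H2BD had a mean of -1.34, HIST1H4H of -1.01 and HIST2H2AA4 of -0.98. HIST1H2AC was at 155, 142 and 155 CPM in G1 cells and at 93.4, 74.7 and 88.2 CPM in S cells (-0.82). HIST1H2BC (-0.67) and HIST1H2BK (-0.38) were the others. These 7 members made up 376, 324 and 356 CPM in all cells.

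A further 7 members fell in neither group. HIST1H1C differed little, with a mean of -0.02. HIST3H2A and HIST1H2BJ were higher in G2M than in G1 cells, by a mean log2 ratio of 0.77 and 1.00, while their S to G1 means were 0.03 and 0.35. HIST1H3H (0.82) and HIST1H2AG (1.02) were higher in S in every library without reaching 2-fold in all, and HIST4H4 had a mean of -0.25.

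Cells were also divided by whether S and G2M list UMIs lay above their medians over all cells (9 and 22 UMIs after thinning). The 12 members of the S-higher group summed to 170, 270 and 190 CPM where neither list was high, 321, 491 and 378 CPM where the S list alone was high, 786, 1385 and 947 CPM where both were high and 539, 963 and 683 CPM where the G2M list alone was high. Their level was thus highest in cells with both lists high in every library. The 7 S-lower members had 469, 423 and 466 CPM with neither list high, 295, 282 and 286 CPM with the S list alone, and 298, 254 and 300 CPM with both. The 7 members outside these groups also fell, from 220, 227 and 225 CPM with neither list high to 179, 190 and 194 CPM with the S list alone. The sum over all 71 members was no higher with the S list alone than with neither list in parental (821 against 884 CPM) and double-positive cells (882 against 906 CPM). In single-positive cells it was slightly higher (995 against 946 CPM). The sum was 1483, 2075 and 1663 CPM with both lists high. In parental and double-positive cells the direction of the summed S to G1 ratio thus depends on how S cells are defined.

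**Figure D2:**
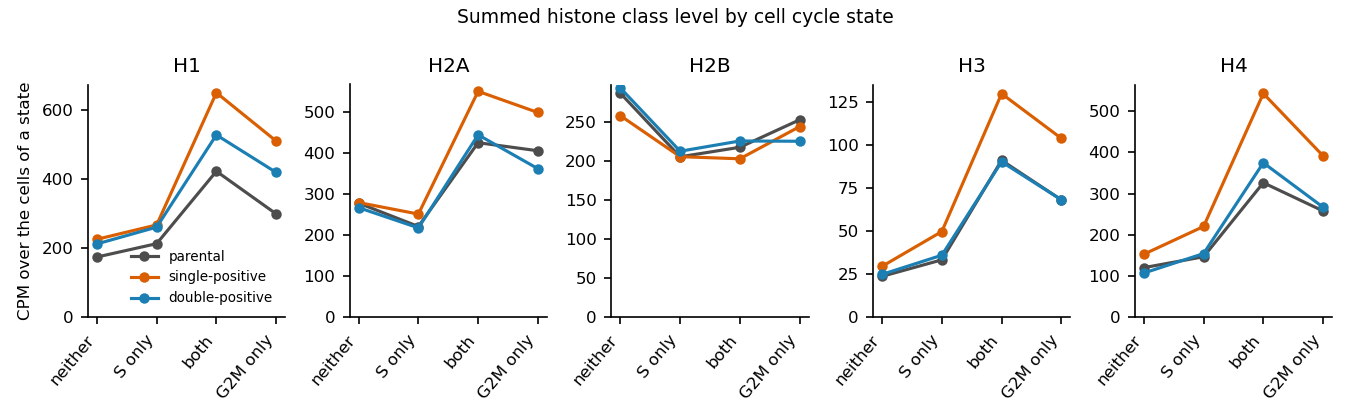
Summed CPM of each histone class (y axes from 0, 1 panel a class) in cells with neither list high, the S list, both lists or the G2M list high, by library. H1, H2A, H3 and H4 peak with both lists high, where single-positive H4 reaches 542 CPM, and H2B is highest with neither list high, at 286, 258 and 293 CPM.

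**Figure D3:**
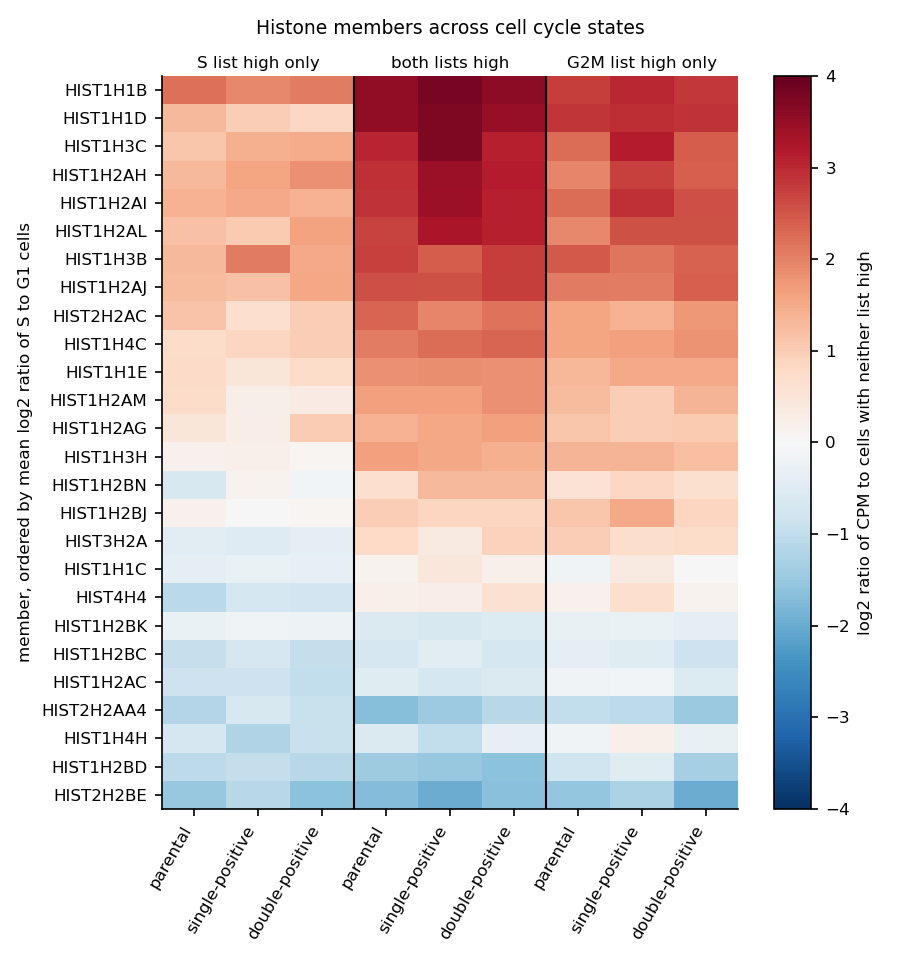
Log2 ratio of each member's CPM to that in cells with neither list high, for 3 states and 3 libraries, with members whose mean reached 5 CPM ordered by their mean S to G1 ratio. The 12 members that are 2-fold higher in S, from HIST1H1B to HIST1H2AM, are above 0 in each state and library, and the lowest 7, from HIST1H2BK to HIST2H2BE, are mostly below 0.

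The annotated 3' ends sorted the members in a similar way. Of the 26 members with at least 5 CPM, 11 have a GENCODE 29 transcript that ends within 50 bases of a poly(A) signal (AATAAA or ATTAAA). Among these, 0 were at least 2-fold higher in S in every library and 6 were lower by any amount in every library. The share of all genes lower by any amount in every library was not computed. Their median mean log2 ratio was -0.67 (-1.70 to 1.02). Among the 15 others, 12 were at least 2-fold higher and 1, HIST1H2BK, was lower, with a median of 1.91 (-0.38 to 2.76). The highest of the 11 was HIST1H2AG. In 9 of these 15 members, HIST1H2BK among them at 381 bases, the longest annotated transcript is under 500 bases, and such short models may stop before a downstream signal. The longer models of HIST1H1C (642 bases), HIST1H1D (666) and HIST1H1B (681) hold no stem-loop match and may stop early as well. The count of members without a signal, and its contrast with the 11, are limited by this. Whether the UMIs came from tailed or tailless molecules was not tested.

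Divergent gene pairs put the contrast side by side. There were 12 pairs of members with start sites within 1000 bases and opposite strands, of which 4 had both members at 5 CPM or more. In 2 of these the partners took opposite directions in S. HIST2H2BE and HIST2H2AC, whose starts lie 323 bases apart on chromosome 1, had mean log2 S to G1 ratios of -1.70 and 1.72, with 10.1, 9.93 and 10.8 CPM against 7.76, 18.4 and 10.5 CPM. HIST1H2BK and HIST1H2AH, 331 bases apart on chromosome 6, had -0.38 and 2.49, with 120, 108 and 124 CPM against 8.40, 21.4 and 11.0 CPM. HIST1H2BC and HIST1H2AC, 219 bases apart, were both lower in S (-0.67 and -0.82). HIST1H2BJ and HIST1H2AG, 292 bases apart, were both higher (0.35 and 1.02).

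Promoter sequences are shown for the pairs whose partners took opposite directions. The window of HIST1H2AH was not matched, so that of HIST1H2BK stands without its partner. RefSeq windows of build GRCh38.p14, from 250 bases before to 50 after the start, are given 5' to 3' on each gene's strand, with 3 motifs in capitals on either strand: the TATA box TATAAA, the CCAAT box and the octamer ATTTGCAT. The windows of HIST2H2BE (minus strand) and HIST2H2AC (plus strand) have 265 of 300 bases in common.
HIST2H2BE, chr1:149886633-149886932: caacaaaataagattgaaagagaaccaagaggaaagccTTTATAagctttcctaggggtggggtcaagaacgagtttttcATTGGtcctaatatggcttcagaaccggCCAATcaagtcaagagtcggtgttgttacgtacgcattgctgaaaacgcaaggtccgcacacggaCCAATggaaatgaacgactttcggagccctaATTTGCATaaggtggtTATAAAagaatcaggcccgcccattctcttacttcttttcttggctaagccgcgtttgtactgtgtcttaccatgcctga
HIST2H2AC, chr1:149886668-149886967: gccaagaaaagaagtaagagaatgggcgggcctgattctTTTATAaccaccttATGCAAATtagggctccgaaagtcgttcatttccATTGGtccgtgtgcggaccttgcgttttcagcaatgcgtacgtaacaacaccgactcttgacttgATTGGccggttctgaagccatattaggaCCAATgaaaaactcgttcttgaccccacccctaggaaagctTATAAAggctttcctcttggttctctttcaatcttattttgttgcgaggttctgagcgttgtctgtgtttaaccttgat
HIST1H2BK, chr6:27146809-27147108: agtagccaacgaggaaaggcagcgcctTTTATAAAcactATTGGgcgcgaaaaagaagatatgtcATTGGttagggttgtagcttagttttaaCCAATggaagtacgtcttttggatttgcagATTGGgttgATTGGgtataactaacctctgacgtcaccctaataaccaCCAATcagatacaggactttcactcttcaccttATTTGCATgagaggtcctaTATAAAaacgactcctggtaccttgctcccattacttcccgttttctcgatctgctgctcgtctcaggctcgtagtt
TATAAA begins 30 bases before the start of HIST2H2BE and 29 before that of HIST2H2AC. Of the 71 members, 66 matched a window. TATAAA occurs in 44 of them, against 11.5% of all 35116 windows. CCAAT, the shortest of the motifs, occurs in 56 against 34.6%, including every matched H1, H2A, H2B and H3 window and 3 of 13 for H4. The octamer ATTTGCAT, the site of POU2F1, occurs in 26 against 1.77%, in 14 of 18 H2B and 11 of 16 H2A windows, in 1 of 13 for H3 and in 0 for H1 and H4. The H3 window with an octamer, that of HIST1H3D, is the same stretch as the window of HIST1H2AD and is counted for both. The GENCODE 29 model of HIST1H3D lies outside it, at 26196840 to 26197250. Windows of divergent H2A and H2B pairs that overlap share 253 to 286 of 300 bases, so a motif can be counted for both partners. The member counts are thus not counts of separate promoters. TATAAA and its reverse complement TTTATA can overlap each other, and a match is a description of these windows alone.

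Single-positive and parental cells differed most in histone level. The sum was 1.33-fold higher in single-positive cells, a log2 ratio of 0.41 (0.39 to 0.42). At a mean of 5 CPM, 12 of 26 members were at least 1.5-fold higher, against 0.337% of 9501 genes, and 0 were at least 1.5-fold lower, against 0.253%. The median of the 26 was 0.37, and 0.06 over all genes. All 12 belonged to the group that is 2-fold higher in S in every library. HIST1H2AM, 1 of the 12, reached that mean only through the single-positive library (7.21 CPM, against 4.37 CPM in parental cells). By class the log2 ratio was 0.70 for H4 (0.67 to 0.74), 0.65 for H1, 0.60 for H3, 0.27 for H2A and -0.13 for H2B (-0.17 to -0.10).

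The largest ratios were those of HIST1H2AH (1.35), HIST2H2AC (1.24, interval 1.08 to 1.40) and HIST1H2AJ (1.12). HIST1H3C had 1.11, HIST1H2AI 1.07, HIST1H4C 0.88 and HIST1H1E 0.78. The lowest were HIST2H2AA4 (-0.46), HIST1H4H (-0.32) and HIST3H2A (-0.29). Single-positive cells included fewer G1 cells (33.7% against 43.8%). Within G1 cells the summed ratio was 0.15 and that of the S-higher group 0.72. It was 0.86 within S cells and 0.77 within G2M cells, so the group's ratio was of similar size in every phase over cells of all depths. The S-lower group had -0.13, -0.21 and -0.17.

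**Figure D4:**
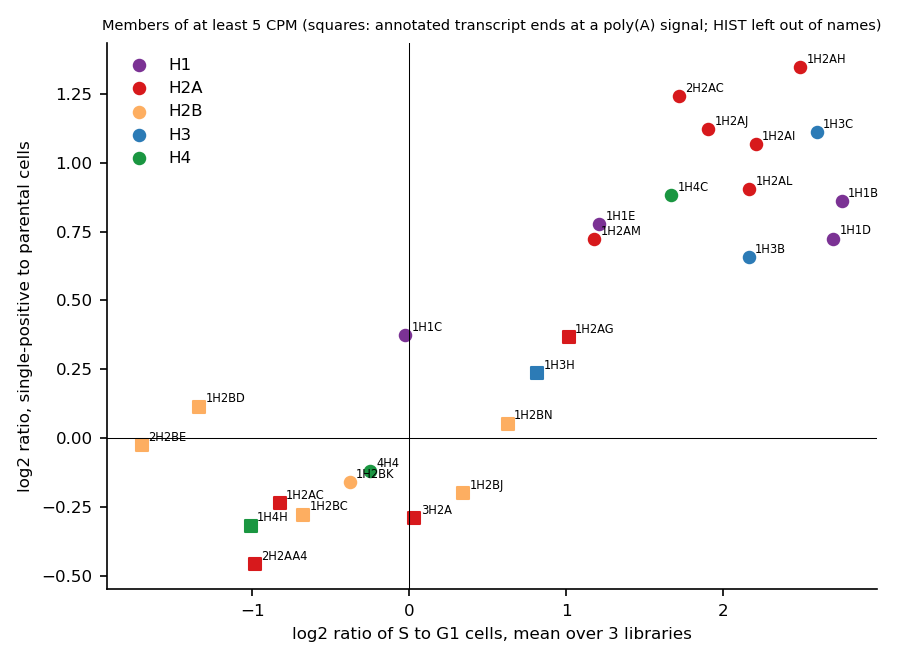
Log2 ratio of single-positive to parental CPM (y) against the mean log2 ratio of S to G1 cells (x) for the 26 members; colours give the class, and squares mark members whose annotated transcript ends at a poly(A) signal. Members at the right, from HIST1H2AM to HIST1H1B, have y values of 0.66 or more, and the 7 at the left, from HIST2H2BE to HIST1H2BK, lie at or below 0.12.

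The summed difference varied with the cells compared. Single-positive cells were above parental cells in each of 5 bins of UMIs per cell, at 2408 against 1556 CPM, 2062 against 1132, 1296 against 1145, 1479 against 1130 and 1494 against 1162 CPM from the shallowest bin to the deepest. In cells of 22974 to 32998 UMIs, the range shared by the libraries' middle quartiles, 628 parental cells had a sum of 1205 CPM, 142 single-positive cells 1159 CPM and 701 double-positive cells 1193 CPM, a log2 ratio of -0.06 for single-positive against parental. None of the 12 members was 1.5-fold higher there, and HIST1H1B (-0.72), HIST1H1D (-0.99) and HIST1H3B (-0.63) had lower values in single-positive cells. Phases differed within the range: 14.1% of the single-positive cells were in G2M against 41.6% of the parental and 25.8% of the double-positive ones. Compared by phase in that range, single-positive G1 cells had 1001 CPM (76 cells) against 852 CPM, S cells 1154 CPM (46 cells) against 1110 CPM and G2M cells 1776 CPM (20 cells) against 1538 CPM. The S-higher group had 318 against 167 CPM in these G1 cells, 667 against 554 CPM in S cells and 999 against 823 CPM in G2M cells. Its ratio in that range was thus largest in G1 cells. With phases weighted equally the ratio of the sum was 0.17, and 5 of the 12 members were 1.5-fold higher. Among them were HIST1H2AH (1.16), HIST1H3C (0.79) and HIST1H2AI (0.77), while HIST1H1B, HIST1H1D and HIST1H3B had -0.19, -0.88 and -0.46. HIST2H2BE and HIST4H4, outside the 12, were also 1.5-fold higher there, and HIST3H2A was 1.5-fold lower. The share of all genes 1.5-fold apart was not computed in this range, and these ratios of few cells are given without intervals. Among cells of at least 20000 UMIs the ratio was 0.37 and 11 of the 12 remained. Depth, phase and library cannot be told apart with 1 library a group.

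Double-positive cells lay below single-positive cells. The log2 ratio of the sum was -0.29 (-0.30 to -0.27). Of 26 members 8 were at least 1.5-fold lower, against 0.453% of 9501 genes, and 0 at least 1.5-fold higher, against 0.305%. The median was -0.33, and -0.03 over all genes. All 8 belonged to the S-higher group, and 1 of them, HIST1H2AM, passed 5 CPM only through the single-positive library. HIST1H2AH had -0.96, HIST1H2AJ -0.92, HIST1H3C -0.83, HIST2H2AC -0.80, HIST1H2AI -0.79 and HIST1H4C -0.67. The highest were HIST1H2BK (0.20, interval 0.15 to 0.25), HIST1H2BC (0.18) and HIST2H2AA4 (0.14). H4 had a class ratio of -0.58, H3 of -0.55 and H2B of 0.12. In all 5 bins of UMIs per cell the double-positive sum was below the single-positive one, at 1038, 1469, 1134, 1270 and 1254 CPM. In the shared UMI range none of the 8 was 1.5-fold lower, HIST1H1B and HIST1H1D were 1.5-fold higher, and the sum had 0.04, or -0.06 with phases weighted equally. The share of all genes 1.5-fold apart was not computed there either. In G1 cells alone the sum had -0.10 and 4 of the 8 were 1.5-fold lower.

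Double-positive and parental cells were closer. The sum had a log2 ratio of 0.12 (0.11 to 0.13), and 0 of 26 members were 1.5-fold higher or lower, against 0.263% and 0.41% of 9501 genes. The median was 0.08, and 0.03 over all genes. H1 was the class with the largest ratio, 0.38 (0.35 to 0.40), with HIST1H1E at 0.46, HIST1H1B at 0.39 and HIST1H1C at 0.27. HIST2H2AC had 0.44, and HIST2H2AA4 (-0.31), HIST1H4H (-0.27) and HIST4H4 (-0.26) were lowest. H2A, H2B and H3 had -0.02, -0.01 and 0.05. Among the named members, HIST1H1E, HIST1H1C, HIST2H2AC, HIST1H2BK and HIST2H2BE kept positive ratios under every alternative tried. Others kept negative ratios, among them HIST2H2AA4 and HIST1H3H. In the shared UMI range the sum had -0.01. Each library enters a pair of comparisons, so these ratios are not independent of one another.

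Histone level varied with UMIs per cell, and differently for H1 and H4. In single-positive cells of 6500 to 10000 UMIs (84 cells) the sum was 2408 CPM (2297 to 2523), and 2062 CPM at 10000 to 20000 UMIs (213 cells). Deeper single-positive cells had 1296 to 1494 CPM. Parental cells had 1556 CPM in the lowest bin (114 cells) and 1130 to 1162 CPM above it. Double-positive cells ranged from 1038 CPM in the lowest bin (36 cells) to 1469 CPM at 10000 to 20000 UMIs. HIST1H1E stood at 644 CPM in the shallowest single-positive cells and at 232 CPM in those of 50000 UMIs or more. In parental cells it went from 260 to 95.3 CPM over the same bins. HIST1H4C had the reverse order, 157 and 336 CPM in single-positive and 129 and 192 CPM in parental cells.

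The shallow single-positive cells differed in other ways as well. Their median mitochondrial share was 3.27% in the lowest bin and 3.32% in the next, against 0.642 to 1.37% in deeper cells. G2M calls made up 61.9% and 58.2% of them. Cells called G1 had 1773 CPM in either bin (23 and 60 cells), against 937 CPM at 30000 to 50000 UMIs. The part of these properties in the histone level was not tested. Barcodes of 100 UMIs or fewer, which hold free RNA, had 1487, 2700 and 2049 histone CPM in parental, single-positive and double-positive libraries, above the level in cells. With 5% of each library's UMIs subtracted in proportion to that profile, the single-positive to parental ratio of the sum was 0.37.

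**Figure D5:**
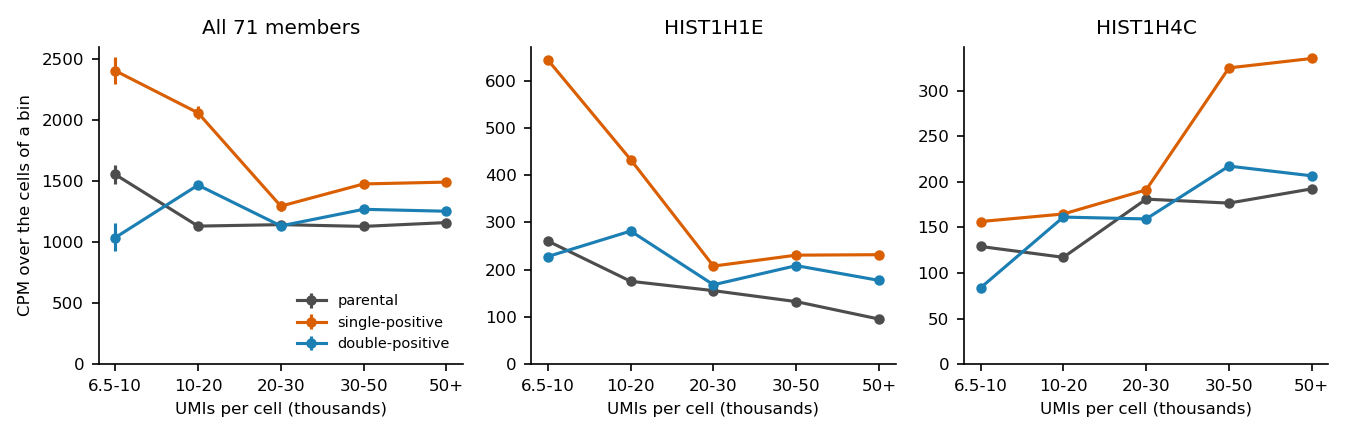
CPM of all 71 members (with exact Poisson intervals), HIST1H1E and HIST1H4C in 5 bins of UMIs per cell, by library, with y axes from 0. HIST1H1E is highest in shallow single-positive cells (644 CPM) and HIST1H4C in deep ones (336 CPM).

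In single cells the members were sparse. After thinning to 6500 UMIs the median cell in the parental, single-positive and double-positive library had 6, 9 and 6 histone UMIs, from 4, 6 and 4 different members. Before thinning the medians were 22, 38 and 29. Cells with 0 histone UMIs after thinning were 1.66% (exact Clopper-Pearson interval 1.19 to 2.25%), 1.32% (0.769 to 2.10%) and 1.70% (1.17 to 2.38%). The highest cells held 70, 60 and 95 UMIs. Cells with 20 or more were 11.2%, 22.1% and 13.5% of those with both lists high, and 0.837%, 0.811% and 0.840% of those with neither high.

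Among 5481 other genes of at least 20 CPM, H1F0 was most like the summed histone level across cells, with Pearson r of 0.39, 0.51 and 0.44 in parental, single-positive and double-positive cells. H1F0 encodes a replication-independent linker histone. H1FX, another linker variant, followed (0.34, 0.38 and 0.33), then HMGB2, a chromatin protein, and MKI67, the antigen of dividing cells, with mean r of 0.29 and 0.28. UBE2C, H2AFX, H3F3B, KIAA0101, MALAT1 and CDK1 completed the 10, at 0.22 to 0.26. HMGB2, MKI67, UBE2C and CDK1 are in the G2M list. Cells of a library share its depth and free RNA, so these are descriptions of 2409, 1291 and 1940 cells.

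Histone genes listed as replication-independent were set beside the members. The 3' ends of their mRNAs were not examined. Of 12 listed, 10 had 5 CPM or more, and 0 were 1.5-fold apart in any comparison, which is near the background of 0.253 to 0.453% of all genes in 1 direction. H3F3B, an H3.3 gene, was at 1596, 1434 and 1640 CPM and H3F3A, the other, at 717, 686 and 721 CPM. H2AFJ was at 365, 276 and 308 CPM, a log2 ratio of -0.40 for single-positive against parental cells. H1F0 stood at 407, 424 and 453 CPM, H2AFY (macroH2A) at 337, 366 and 348 CPM, H2AFV at 276, 281 and 286 CPM, and H1FX at 234, 247 and 209 CPM. In S against G1 cells, where 3.28 to 3.6% of all genes were at least 2-fold higher, 2 of the 10 were so in each library: H2AFX, which marks DNA breaks when phosphorylated (mean log2 ratio 1.45), and CENPA, the centromere H3 (1.70).

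Genes that make or carry histones were taken from 4 lists. In these, 0 genes were 1.5-fold apart between libraries, near the same background, and the S counts below stand against the 3.28 to 3.6% of all genes. Of 19 histone mRNA processing genes at 5 CPM or more, 4, 2 and 3 were 2-fold higher in S in parental, single-positive and double-positive cells. SLBP, the stem-loop binding protein, was at 110, 106 and 109 CPM, with a mean log2 S to G1 ratio of 1.31. The Sm proteins SNRPB (0.38), SNRPD3 (0.31), SNRPE (0.16), SNRPF (0.22) and SNRPG (0.28), which are shared with spliceosomal snRNPs, differed less. Of 12 genes of histone transcription, 6, 5 and 5 were 2-fold higher in S, among them CCNA2, a cyclin (2.56), and CDK2, its kinase (1.53), while YY1 (0.09), E2F4 (0.10), E2F3 (0.18) and GON4L (-0.18) were not. Of 11 genes that supply H3 and H4 to new chromatin, 8 were 2-fold higher in each library, with ASF1B (2.98), a chaperone, MCM2 (2.08), a helicase subunit that also binds H3 and H4, NASP (1.60) and HAT1 (1.10), the histone acetyltransferase, above RBBP4 (0.69) and RBBP7 (0.68). Their median single-positive to parental log2 ratio was 0.25, against 0.06 over all genes, and 11 of 11 were above 0. So were 13 of 19 processing genes, 9 of 12 transcription genes and 10 of 12 other chaperones. The share of all genes above 0 was not computed. Of 12 other chaperones 0 were 2-fold higher in S. They included NPM1 (0.36), NCL (0.42), SET (0.17), NAP1L1 (0.40) and the FACT subunits SUPT16H (0.77) and SSRP1 (0.51).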

How the data were processed

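The 3 deposited matrices hold UMI counts per gene and barcode, whole numbers for 33694 features and 737280 barcodes per library, unfiltered per the file headers. The submitters' processing notes name Cell Ranger 4.0.0, Seurat 4.0.6 and GRCh38. Which gene annotation they counted on is not given in the sources used. GENCODE 29 was used for positions and transcripts and RefSeq for promoters.

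Barcodes with at least 6500 UMIs were kept, without a doublet caller, and UMIs were summed by library, phase or state and scaled to CPM. Exact Poisson intervals were given for levels and exact binomial (Clopper-Pearson) intervals for ratios and shares. Phases were called with scanpy 1.11.5 on cells thinned to 6500 UMIs. Folds were read at a mean of 5 CPM or more, at 1.5-fold between libraries and 2-fold between phases. Other tools were pandas 2.3.3, scipy 1.17.1, numpy 2.4.6, matplotlib 3.10.9 and Python 3.11.15, and the ratio code was tested on simulated data.

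Genes were named by rule: in each class the 5 members of highest mean CPM, the 3 highest and 3 lowest ratios of each comparison, the 5 highest and 5 lowest S to G1 ratios, the replication-independent histones, up to 6 genes of each other list by mean CPM, the 10 genes most like the summed level, and members with 0 UMIs. HIST1H1T, HIST1H2AM and HIST2H2AA3 were named after their values were seen. Members and lists were chosen with earlier results of these data known. Other settings were tried, 13 for library ratios, 6 for phases and others for floor and fold, and 1 was added after seeing the data.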

Additional observations from a re-analysis of the deposited data

Results flagged for a closer look

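HIST3H2A, an H2A gene of the small cluster on chromosome 1, took different directions in S against G1 cells in different libraries. The log2 ratio was 0.153 in parental cells, -0.274 in single-positive cells and 0.224 in double-positive cells. The difference between the libraries was not tested, since each is 1 library.

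Barcodes of 100 UMIs or fewer are not cells and enter no comparison. Their histone level was 2700 CPM in the single-positive and 2049 CPM in the double-positive library, above the 1487 CPM of the parental library.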

How the results depend on the processing

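Where cells of the shared UMI range alone were used, the log2 ratios of the summed histone level changed sign: -0.056 for single-positive against parental, 0.041 for double-positive against single-positive and -0.015 for double-positive against parental. So did HIST1H1B (-0.72), HIST1H1D (-0.99), HIST1H1E (-0.060) and HIST1H3B (-0.63), single-positive against parental. With phases also weighted equally, an alternative chosen after seeing the data, the sums had 0.17 and -0.062, and HIST1H1B (-0.19), HIST1H1D (-0.88) and HIST1H3B (-0.46) were below 0. The cause was not tested.

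Single-positive against parental, the sum had 0.15 in G1 cells, 0.35 with median-of-ratios scaling, 0.37 at 20000 UMIs or more, 0.37 with free RNA subtracted, 0.38 with phases weighted equally, 0.43 without cells of 50000 UMIs or more, 0.48 after thinning and 0.48 as a mean over cells. Members 1.5-fold apart, 12 and all higher, numbered 5 in the shared range (1 higher, 4 lower, 0 of the 12), 6 in G1 cells (each among the 12) and 5 at 2-fold. Double-positive against single-positive, the sum had -0.10 in G1 cells, -0.25 with phases weighted equally, -0.26 with median-of-ratios scaling, -0.26 at 20000 UMIs or more, -0.31 without cells of 50000 UMIs or more, -0.39 after thinning and -0.38 as a mean over cells. Members 1.5-fold apart, 8 and all lower, numbered 2 in the shared range (both higher, 0 of the 8), 4 in G1 cells (each among the 8), 5 in the shared range with phases weighted equally (4 lower, 2 of them of the 8, and 1 higher) and 0 at 2-fold. Double-positive against parental, the sum had 0.048 in G1 cells, 0.091 with median-of-ratios scaling, 0.093 with free RNA subtracted, 0.096 after thinning, 0.10 as a mean over cells, 0.10 without cells under 0.5% mitochondrial UMIs, 0.11 at 20000 UMIs or more and 0.14 without mitochondrial UMIs in the total. Members 1.5-fold apart, 0 in all cells, numbered 1 in the shared range and 1 at a floor of 1 CPM. The share of all genes 1.5-fold apart was not computed under these alternatives.

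For S against G1 cells, the 4 states gave -0.11, 0.072 and -0.038 in parental, single-positive and double-positive cells. Cells of 20000 UMIs or more gave 0.29, 0.73 and 0.49. Thinning gave 0.38 in parental and 0.47 in single-positive cells, where a mean over cells gave 0.47. Subtraction of free RNA gave 0.74 in the single-positive and 0.58 in the double-positive library, and phases from all UMIs 0.48 in double-positive cells. Members 2-fold apart were 7 at a floor of 10 CPM in parental cells (14 at 5 CPM). In single-positive cells they were 9 by the 4 states and 27 at a floor of 1 CPM (15 at 5 CPM). In double-positive cells they were 23 at 1 CPM and 8 at 10 CPM (15 at 5 CPM). The share of all genes 2-fold apart was not computed under these other settings, so the counts have no background beside them.

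No paired analysis was possible because each group has 1 library. Poor capture of tailless mRNAs, low counts of most members and cells of unlike depth limit every value.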
